A study of Mus musculus with 8 samples.

Results

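The expression of 10 mouse genes of the p53 response, of senescence and of the arrest of the cell cycle was followed in the liver of obese old mice with and without docosahexaenoic acid (DHA) in the diet. The 10 genes are Cdkn1a, Cdkn2a, Cdkn2b, Cdkn2c, Ccnd1, Ccng1, Mdm2, Gadd45a, Gadd45g and Trp53inp1, taken by symbol from the 56884 genes of each count table, and each symbol matched 1 gene. Poly(A) RNA from liver was sequenced in 8 libraries, each titled as its own mouse, 3 of them DIO and 5 DIO + DHA. The mice were C57BL/6J females that ate high-fat food, in which lipids gave 45%, protein 20% and carbohydrate 35% of the energy, from 2 months of age, for 4 months before the groups were formed, and all were killed at 18 months after an overnight fast. The DIO group (diet-induced obesity) stayed on that diet, with mixed tocopherols added from then on to equal those in the concentrate described next. In the diet of the DIO + DHA group, a fish-oil concentrate with 683.4 mg DHA, 46.7 mg EPA and 838.9 mg total n-3 fatty acids per g took the place of 15% of the lipids by weight. No lean or young mice were analysed here, so the comparison is between the 2 diets within obese old animals.

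The p53 protein is a transcription factor that is stabilised by DNA damage and other stress and that binds pairs of short half-sites near its target genes. Cdkn1a encodes p21, the inhibitor of cyclin-dependent kinases through which p53 stops the cycle before DNA is copied, and Mdm2 encodes the ubiquitin ligase that removes p53 and so closes a feedback loop. The Ink4 proteins encoded by Cdkn2a, Cdkn2b and Cdkn2c bind the kinases CDK4 and CDK6 and keep them from cyclin D1, the product of Ccnd1. Rising p16Ink4a and p21 are widely used marks of senescent cells, which have left the cycle and secrete cytokines, proteases and growth-factor binding proteins. In liver, Cdkn1a is also known to respond to feeding state and to the circadian clock.

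Matches to the p53 consensus near some of the 10 genes are shown first, since the values below are read gene by gene. The GRCm39 sequence from 3000 bases before to 3000 bases after the outermost annotated start of each gene was searched on both strands for 2 adjoining p53 consensus half-sites of 10 letters each, with at most 1 base between them and at most 1 mismatch outside the cores. Of the 10 genes, 4 (40%) held such a pair, against 399 of 21648 protein-coding genes (1.84%) and 251 of the 11266 protein-coding genes tested below (2.23%). Of 32 other known p53 targets listed for comparison, 4 (12.5%) did. A match describes letters and not binding, and since the 10 genes include known p53 targets, their share is a description. Each line gives the gene strand 5′ to 3′, with 5 flanking bases in lower case on either side and the half-sites in capitals.
Cdkn1a: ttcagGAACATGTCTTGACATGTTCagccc
Trp53inp1: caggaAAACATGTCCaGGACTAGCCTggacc
Ccng1: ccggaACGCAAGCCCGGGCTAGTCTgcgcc
Cdkn2b: tacttAGACATGTCCGGTCTTGCTCagcca
Coordinates below include the 5 flanking bases on either side, while distances run to the first base of the half-sites. The Cdkn1a pair lies at chr17:29309897-29309926 on the plus strand, between genes, and begins 48 bases before the outermost start. The Trp53inp1 pair at chr4:11155107-11155137 on the plus strand, also between genes, had 0 mismatches, with 1 base between its half-sites, and begins 1319 bases before the start. The Ccng1 pair at chr11:40645758-40645787 on the minus strand is in an intron of Ccng1, 356 bases after the start. The Cdkn2b pair at chr4:89226632-89226661 on the minus strand is in an intron of Cdkn2b that is also an intron of the opposite gene Gm12610, 2620 bases after the start. The letters searched were not found in the windows of the other 6 genes. Other starts were not searched around (Mdm2 has 8 annotated first exons), and neither were pairs with more mismatches. The other 6 genes may therefore have p53 sites that this search left out.

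The libraries held 1723800 to 5690347 counts, and DIO replicate 1 was the shallowest. Expression is given in CPM, the count of a gene as scaled to a common library total by the TMM method. The 3′-enriched counts were not divided by gene length, so levels are compared between mice and not between genes. Differences are log2 fold changes, DIO + DHA minus DIO, from the quasi-likelihood test of edgeR with Benjamini-Hochberg adjustment over the 12412 genes that passed a filter on low counts, and "called" means an adjusted p under 0.05. Libraries of a group lay close together. For the 4182 tested genes that averaged 20 CPM or more, the median chi-square per degree of freedom between libraries was 1.66 in DIO and 1.81 in DIO + DHA, where counting error alone would give medians of 0.693 and 0.839, and the common biological coefficient of variation was 0.0801. Sums of genes foreign to liver were also even over the 5 DIO + DHA libraries. Their coefficients of variation were 2.85% for the summed skeletal muscle markers and 2.58% for the summed stratified epithelium markers. Single muscle genes were not all as even as their sum. In DIO + DHA, Acta1, the most abundant, was at 544 ± 20.7 CPM, while Myh1 was at 76.7 ± 23.7 CPM (SD, n = 5). Whether the libraries of a group came from livers extracted one by one was not tested. Each SD, n and p below measures the spread between these libraries, which may be technical. All libraries carry the same batch label.

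Of the 10 genes, 3 rose with DHA, none fell, 5 were tested and not called, and Cdkn2a and Cdkn2b had too few counts to be tested. The 3 that rose were Cdkn1a, Ccnd1 and Trp53inp1, and their libraries did not overlap between the groups. Among all tested genes, 15.2% were called, 7.89% as higher and 7.28% as lower, and 18.4% had groups that did not overlap. The 8 tested genes include genes that rose and genes that did not, and their median log2 fold change was -0.04, beside 0.0013 over all tested genes. In bulk liver, fewer cells of a type and less RNA per cell cannot be told apart. Since the 10 genes were listed with earlier results of these data in view, their count is a description. The plot of CPM by library shows the spread behind each call.

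**Figure D1:**
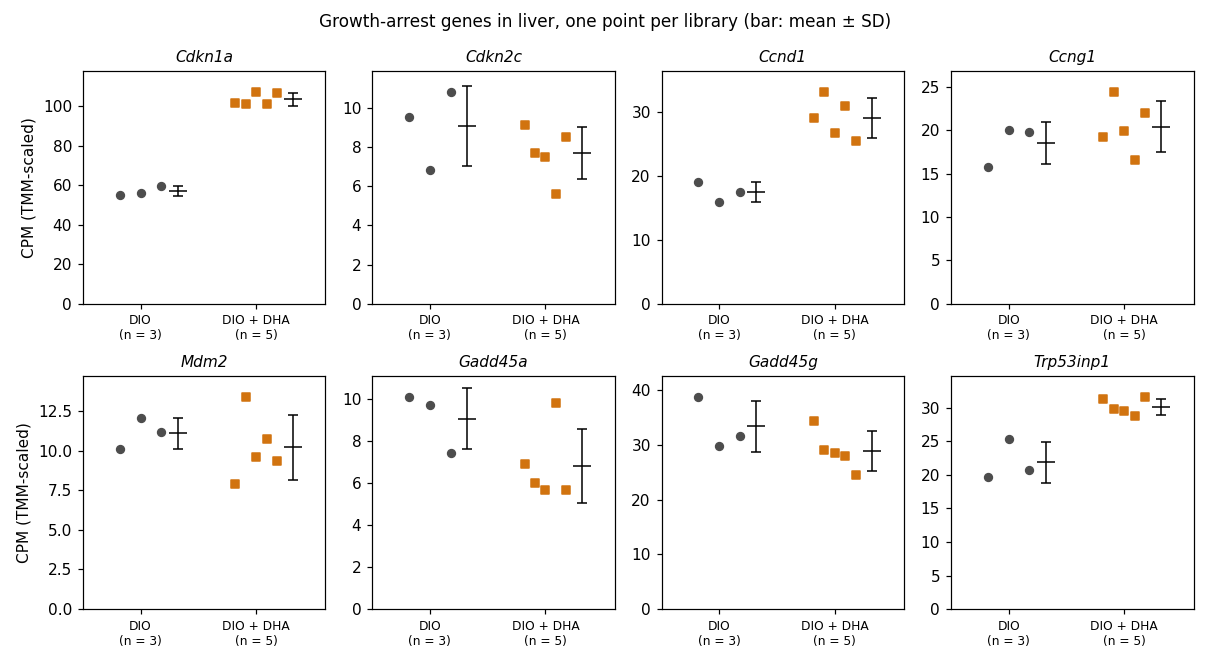
CPM (TMM-scaled) of the 8 tested genes in each liver library, with grey circles for DIO (n = 3), orange squares for DIO + DHA (n = 5) and bars for the mean ± SD. In Cdkn1a, Ccnd1 and Trp53inp1 the squares all lie above the circles, whereas in the other 5 genes the groups overlap.

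Cdkn1a (ENSMUSG00000023067.15, chromosome 17, 29309950 to 29319701, plus strand), the p21 gene, showed the largest change of the tested genes listed above. Its counts were 98, 312 and 337 in DIO replicates 1, 4 and 5, which is 55.0, 56.1 and 59.7 CPM. In DIO + DHA replicates 1, 2, 4, 5 and 6 there were 512, 302, 301, 432 and 489 counts, or 101, 101, 107, 101 and 107 CPM. The lowest value with DHA was far above the highest without it, and the libraries of a group lay close together. The mean was 56.9 ± 2.44 CPM (SD, n = 3) in DIO and 103 ± 3.17 CPM (SD, n = 5) with DHA. The log2 fold change was 0.85 with a standard error of 0.089 and a 95% interval of 0.63 to 1.07, or 1.80-fold (adjusted p = 2e-11, edgeR). By p-value it stood at rank 156 of the 12412 genes. Its coefficients of variation were 4.29% in DIO and 3.06% in DIO + DHA, where counting error alone would give 7.39% and 5.09%, so the libraries differed by less than counting error within each group. Of its exon bases, 7.68% are shared with Dino, a long non-coding RNA on the opposite strand, in a stretch 6686 bases from the 3′ end of Cdkn1a. Dino itself had 1 count in DIO and 0 in DIO + DHA.

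Trp53inp1 (ENSMUSG00000028211.12, chromosome 4, 11156431 to 11174379, plus strand) encodes a p53-induced nuclear protein that acts in cell death and autophagy. It had 35, 141 and 117 counts in the DIO libraries, or 19.6, 25.4 and 20.7 CPM. The DIO + DHA libraries had 158, 89, 83, 123 and 145 counts, or 31.3, 29.8, 29.6, 28.7 and 31.6 CPM. The groups did not overlap, but the highest DIO library, replicate 4, came close to the lowest DIO + DHA library. The mean was 21.9 ± 3.05 CPM (SD, n = 3) in DIO and 30.2 ± 1.21 CPM (SD, n = 5) with DHA. This gave a log2 fold change of 0.43 with a standard error of 0.128 and a 95% interval of 0.12 to 0.75 (adjusted p = 0.0121, edgeR). Without DIO replicate 5 the log2 fold change was 0.37 and the gene was no longer called (adjusted p = 0.108, edgeR). By the threshold of the study's methods, a limma-voom log-odds B above 0, which 6.92% of tested genes passed, Trp53inp1 was not called either (B = -1.98), while Cdkn1a (B = 14.7) and Ccnd1 (B = 3.83) were.

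The other p53 targets among the 10 genes were not called. Mdm2 (ENSMUSG00000020184.16, chromosome 10, 117524780 to 117546663, minus strand), the ligase of the feedback loop, had 18, 67 and 63 counts in DIO, or 10.1, 12.1 and 11.2 CPM. In DIO + DHA it had 40, 40, 27, 46 and 43 counts, or 7.92, 13.4, 9.61, 10.8 and 9.37 CPM. DIO + DHA replicate 2 was the highest of all 8 libraries and replicate 1 the lowest, so the groups overlapped. The log2 fold change was -0.18 with a 95% interval of -0.64 to 0.28 (adjusted p = 0.624, edgeR).

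Ccng1 (ENSMUSG00000020326.8, chromosome 11, 40639379 to 40646138, minus strand) encodes cyclin G1, a p53 target that takes part in the control of MDM2. Its counts of 28, 111 and 112 in DIO gave 15.7, 20.0 and 19.8 CPM. In DIO + DHA, 97, 73, 56, 71 and 101 counts gave 19.2, 24.4, 19.9, 16.6 and 22.01 CPM. The DIO range lay almost within that of DIO + DHA. The log2 fold change was 0.085 with a 95% interval of -0.27 to 0.44 (adjusted p = 0.793, edgeR), an interval that leaves out the change of Cdkn1a. The upper bound of Mdm2 also lies below the Cdkn1a value.

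The Gadd45 genes encode small stress proteins that bind p21, PCNA and stress kinases, and Gadd45a is a p53 target. Gadd45a (ENSMUSG00000036390.9, chromosome 6, 67012080 to 67014441, minus strand) had 18, 54 and 42 counts in DIO, or 10.1, 9.72 and 7.44 CPM, and 35, 18, 16, 42 and 26 counts in DIO + DHA, or 6.93, 6.02, 5.70, 9.82 and 5.67 CPM. In DIO + DHA, replicates 1, 2, 4 and 6 lay below all DIO libraries and replicate 5 lay among them. Its log2 fold change was -0.35 with a 95% interval of -0.89 to 0.18 (adjusted p = 0.333, edgeR). Gadd45a shares 19.1% of its exon bases with E230016M11Rik on the opposite strand, which had 15 counts in each group.

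Gadd45g (ENSMUSG00000021453.3, chromosome 13, 52000714 to 52002504, plus strand) had 69, 166 and 179 counts in DIO, or 38.7, 29.9 and 31.7 CPM. The DIO + DHA libraries had 174, 87, 80, 120 and 112 counts, or 34.4, 29.1, 28.5, 28.0 and 24.4 CPM. The highest library was DIO replicate 1, and DIO + DHA replicate 1 lay above the other 2 DIO libraries. The log2 fold change was -0.16 with a 95% interval of -0.47 to 0.14 (adjusted p = 0.464, edgeR).

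The 2 genes of the Cdkn2a and Cdkn2b locus were near the limit of detection in every library. Cdkn2a (ENSMUSG00000044303.7, chromosome 4, 89192708 to 89212890, minus strand) encodes p16Ink4a and, from another first exon and reading frame, p19Arf, which blocks MDM2. It had 0 counts in all 3 DIO libraries and in 4 of the 5 DIO + DHA libraries, and 2 counts in DIO + DHA replicate 6. No counts among 12938619 in DIO allow up to 3 counts, or 0.232 CPM. The annotation gives it 2 coding transcripts with 2 first exons, 2 ends and 575 bases in common, and the counts per gene do not separate them.

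Cdkn2b (ENSMUSG00000073802.6, chromosome 4, 89224536 to 89229276, minus strand), which encodes p15Ink4b, had 0, 0 and 2 counts in DIO and 2, 1, 0, 0 and 2 counts in DIO + DHA. The sums were 2 and 5, and the ratio per total count was 1.63 with an exact 95% counting interval of 0.266 to 17.1. A change of Cdkn2a or Cdkn2b was not detectable at this depth.

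Cdkn2c (ENSMUSG00000028551.15, chromosome 4, 109518073 to 109524386, minus strand), which encodes p18Ink4c, was measured in every library. It had 17, 38 and 61 counts in DIO, or 9.54, 6.84 and 10.8 CPM, and 46, 23, 21, 24 and 39 counts in DIO + DHA, or 9.11, 7.69, 7.48, 5.61 and 8.499 CPM. The ranges overlapped, with DIO replicate 4 below 4 of the DIO + DHA libraries. The log2 fold change was -0.21 with a 95% interval of -0.73 to 0.31 (adjusted p = 0.604, edgeR), and without DIO replicate 5 it was 0.0275. Cdkn2c shares 12.7% of its exon bases with Gm57073 on the opposite strand, which had 11 and 5 counts.

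Ccnd1 (ENSMUSG00000070348.6, chromosome 7, 144483668 to 144493662, minus strand), the cyclin that the Ink4 proteins act against, was the other gene with a large rise. It had 34, 88 and 99 counts in DIO, or 19.1, 15.8 and 17.5 CPM. The DIO + DHA libraries had 147, 99, 75, 132 and 117 counts, or 29.1, 33.1, 26.7, 30.8 and 25.5 CPM. All 5 DIO + DHA libraries lay above all 3 DIO libraries. The mean was 17.5 ± 1.62 CPM (SD, n = 3) in DIO and 29.1 ± 3.08 CPM (SD, n = 5) with DHA. This gave a log2 fold change of 0.76 with a standard error of 0.138 and a 95% interval of 0.42 to 1.096, or 1.69-fold (adjusted p = 2.58e-05, edgeR). At its 3′ end Ccnd1 overlaps LTO1 on the opposite strand, over 23.4% of the exon bases of Ccnd1. The counting set neither a strand nor an option for shared bases, so reads in that stretch went to neither gene and the counts of Ccnd1 leave them out. LTO1 had 104 counts in DIO and 154 in DIO + DHA.

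**Figure D2:**
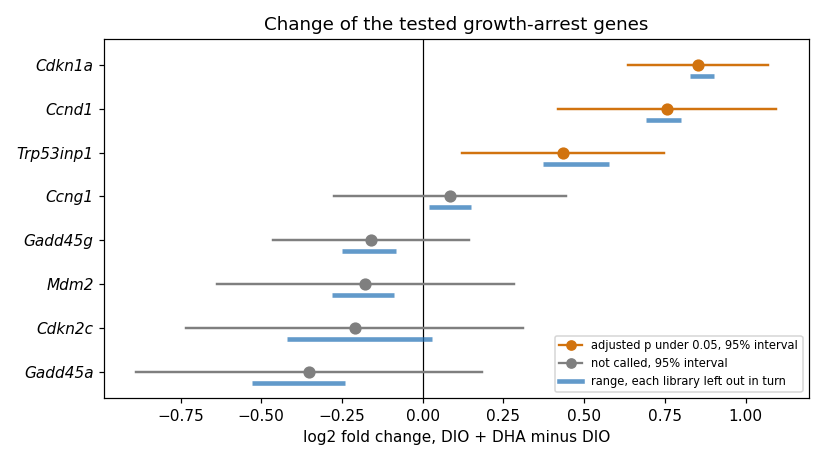
Log2 fold change (DIO + DHA minus DIO) of the 8 tested genes from edgeR, with its 95% interval as a thin line and the range of the estimate with each of the 8 libraries left out in turn as a blue bar. Cdkn1a (0.85), Ccnd1 (0.76) and Trp53inp1 (0.43) have intervals above 0, and the blue bar of Cdkn2c reaches across 0.

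Ratios of raw counts within a library do not depend on how libraries are scaled to each other. In all, 5 ratios were chosen after the values were seen, so they are given as a description, with no test. The count of Cdkn1a was 4.66 to 5.44 times that of Mdm2 in DIO and 7.55 to 12.8 times with DHA, a mean log2 difference of 1.00. Against Ccng1 the ratio was 2.81 to 3.5 in DIO and 4.14 to 6.08 in DIO + DHA, a log2 difference of 0.72. The groups did not overlap in either ratio.

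Set against Trp53inp1, the other called gene of the 10 that is a p53 target, the ratio of Cdkn1a was 2.21 to 2.88 in DIO and 3.24 to 3.63 in DIO + DHA, a log2 difference of 0.39. Set against Ccnd1, it was 2.88 to 3.55 in DIO and 3.05 to 4.18 in DIO + DHA, a log2 difference of 0.13, and here the groups overlapped. The ratio of Ccnd1 to Cdkn2c, the Ink4 gene with counts in every library, was 1.62 to 2.32 in DIO and 3 to 5.5 in DIO + DHA, a log2 difference of 0.96.

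**Figure D3:**
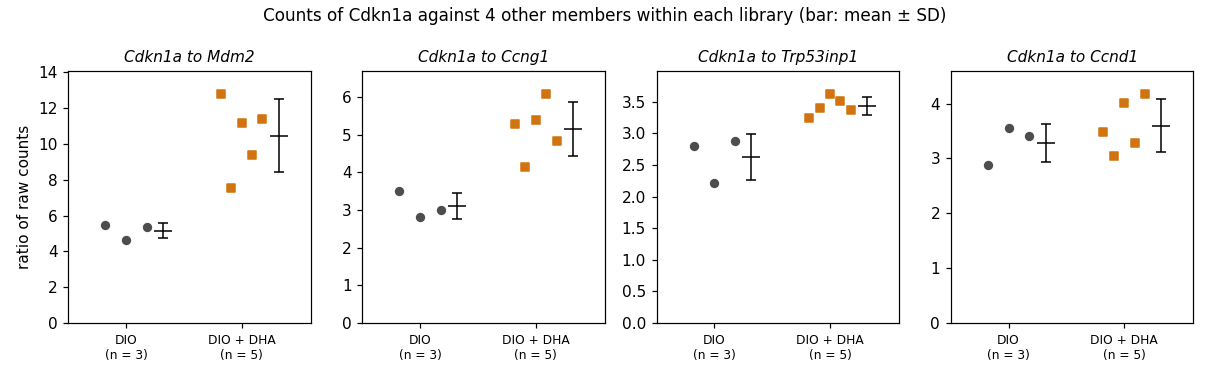
Ratio of the raw count of Cdkn1a to those of Mdm2, Ccng1, Trp53inp1 and Ccnd1 within each library, with circles for DIO (n = 3), squares for DIO + DHA (n = 5) and bars for the mean ± SD. The groups are apart in the first 3 panels (4.66 to 5.44 against 7.55 to 12.8 for Mdm2) and overlap in the panel of Ccnd1.

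The genes whose pattern over the 8 libraries was most like each of the 3 most abundant members were sought among the same 4182 genes, by the root mean square difference of centred log2 CPM. Closest to Cdkn1a were Pnpla7, a lysophospholipase gene, at 0.04, Got1, a cytosolic aspartate aminotransferase gene, at 0.0592, and Cyp8b1, a bile acid synthesis gene, at 0.0654, where Cdkn1a itself varied by 0.417 around its mean. Pnpla7 went from 114 to 211 CPM, Got1 from 134 to 260 CPM and Cyp8b1 from 322 to 613 CPM. Closest to Trp53inp1 were Arf4 (0.0588), Rab6a (0.0756) and Ppa1 (0.0776), and closest to Gadd45g were Stau1 (0.0655), Ctr9 (0.0814) and Dhdh (0.0820). None of these 9 genes is in the lists of p53 or cell-cycle genes used here. Most genes of those lists averaged too few CPM to be among the genes searched. Their absence therefore cannot show whether they share a pattern with Cdkn1a, Trp53inp1 or Gadd45g.

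The tested genes of p53 and its regulators were not called. Of 17 listed, 13 were tested, 0 rose and 0 fell, with a median log2 fold change of -0.13. Trp53, which encodes p53, was at 13.4 ± 2.86 CPM (SD, n = 3) in DIO and 17.6 ± 2.51 CPM (SD, n = 5) in DIO + DHA (log2 fold change 0.32, adjusted p = 0.209, edgeR). Mdm4, which encodes a partner of MDM2 that holds p53 inactive, was at 20.7 ± 1.04 and 17.5 ± 1.90 CPM (log2 fold change -0.24, adjusted p = 0.322, edgeR). The most abundant of the list was Rchy1, another ubiquitin ligase for p53, at 29.1 and 30.7 CPM. p53 is controlled largely at the protein level, which was not measured in these libraries.

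Of 32 other p53 targets, 25 were tested, 2 rose and 2 fell, and the median log2 fold change was -0.0032. Ei24, which encodes a membrane protein of the endoplasmic reticulum with a role in autophagy, rose from 183 ± 8.22 CPM to 237 ± 8.70 CPM (log2 fold change 0.36, adjusted p = 0.000137, edgeR). Perp, which encodes a protein of cell junctions and cell death, rose from 158 ± 7.33 to 190 ± 6.87 CPM (log2 fold change 0.26, adjusted p = 0.00936, edgeR). Plk3, a stress-responsive kinase gene, fell from 21.3 ± 2.24 to 9.43 ± 1.36 CPM (log2 fold change -1.16, adjusted p = 1.46e-07, edgeR). Gdf15, which encodes a secreted stress hormone, fell from 10.1 ± 2.37 to 4.49 ± 1.49 CPM (log2 fold change -1.05, adjusted p = 0.000882, edgeR). The 4 called genes are 16% of the 25 tested, beside the 15.2% of all genes. The summed CPM of the list was 533 to 540 in DIO and 566 to 629 in DIO + DHA, with no overlap, and Ei24 and Perp make up much of it.

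The other inhibitors and the other G1 genes listed gave no calls. Of 12 other cell-cycle inhibitors, 10 were tested, 0 rose and 0 fell, with a median of 0.21, among them Cdkn1b, which encodes p27 (13.2 ± 1.03 and 15.0 ± 1.502 CPM, adjusted p = 0.545, edgeR). The most abundant was Tob1, an antiproliferative gene, at 53.1 and 54.9 CPM. Of 13 other cyclins, kinases and E2F factors of G1, 11 were tested and 0 were called, with a median of -0.17. The other D cyclins, Ccnd2 (8.82 and 8.08 CPM) and Ccnd3 (5.27 and 4.61 CPM), were among these, and so was their kinase Cdk4 (24.3 ± 2.04 and 22.1 ± 2.72 CPM, adjusted p = 0.49, edgeR).

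Of 25 proliferation genes, 16 were tested, 0 rose and 2 fell, with a median of -0.29. The 2 called genes are 12.5% of those tested, beside 15.2% of all genes. Tk1, thymidine kinase, fell from 12.4 ± 0.466 to 6.71 ± 1.95 CPM (log2 fold change -0.83, adjusted p = 0.00171, edgeR), and Rrm2, a subunit of ribonucleotide reductase, fell from 4.56 ± 1.97 to 1.69 ± 0.731 CPM (log2 fold change -1.18, adjusted p = 0.017, edgeR). Tyms, which had the highest CPM among them, was at 11.3 and 11.9 CPM. The proliferation mark Mki67 was at 1.69 ± 0.878 and 1.13 ± 0.974 CPM, too low to resolve (adjusted p = 0.474, edgeR).

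Of 38 listed senescence-associated secretory genes, 29 were tested, 2 rose and 7 fell (31% called, beside 15.2% of all genes), and the median was -0.28, also with a gene absent from DIO set at its bound. Igfbp2, an insulin-like growth factor binding protein gene that hepatocytes express, rose from 289 ± 12.7 to 754 ± 56.6 CPM (log2 fold change 1.38, adjusted p = 3.95e-23, edgeR). Igfbp6 had 0 counts in all 3 DIO mice and 102 in all over the mice given DHA, at least 22.1-fold higher against a floor of 3 counts over the DIO group. As given below, 8 stratified epithelium markers also had 0 counts in DIO, and the tissue behind the Igfbp6 counts was not tested. The summed CPM of the list was higher with DHA, at 1414 to 1641 in DIO and 1654 to 1909 in DIO + DHA with no overlap, and Igfbp2 and Igfbp4 hold most of it. The 3 that fell with the smallest p-values are chemokine genes. Ccl5 fell from 103 ± 8.93 to 32.9 ± 1.83 CPM (log2 fold change -1.64, adjusted p = 2.7e-21, edgeR). Cxcl1 fell by 1.56 and Ccl4 by 2.95 on the log2 scale (adjusted p = 9.89e-10 and 2.23e-07, edgeR). Il6 and Areg had 0 counts in all libraries. The most abundant gene of the list, Igfbp4, was at 830 ± 112 and 776 ± 43.0 CPM (adjusted p = 0.451, edgeR).

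Of 9 other marks of senescent cells, all tested, H2ax rose and Fuca1 fell (22.2% called, beside 15.2% of all genes). H2ax, which encodes the histone variant that is phosphorylated at DNA breaks, rose from 13.9 ± 1.61 to 19.8 ± 2.76 CPM (log2 fold change 0.56, adjusted p = 0.00962, edgeR). Fuca1, a lysosomal fucosidase gene, fell from 147 ± 17.3 to 119 ± 5.32 CPM (log2 fold change -0.32, adjusted p = 0.00259, edgeR). Glb1, the gene of the lysosomal galactosidase used to stain senescent cells, was at 9.57 ± 2.75 and 8.59 ± 1.63 CPM (adjusted p = 0.497, edgeR). The plot of fold changes by list sets these genes side by side.

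**Figure D4:**
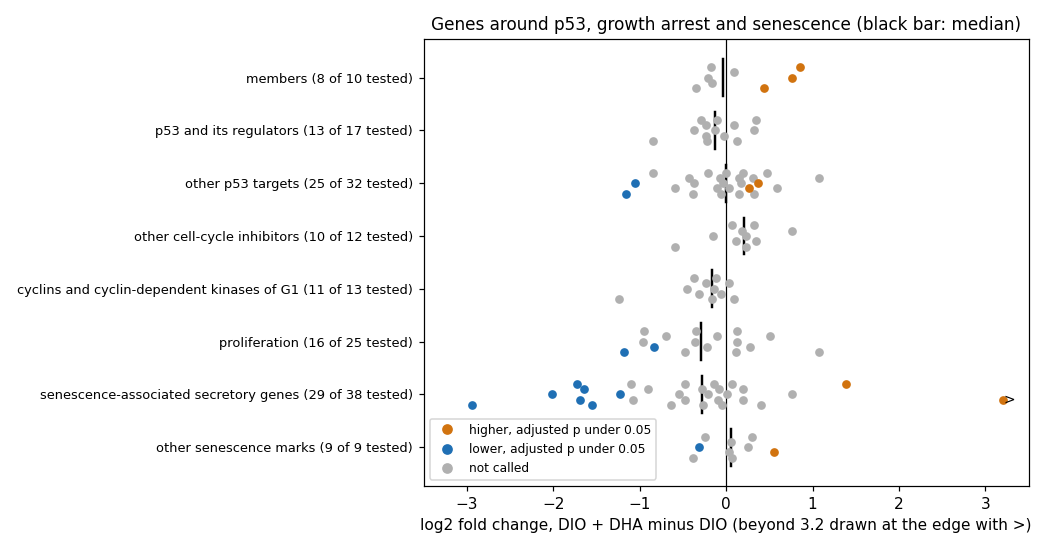
Log2 fold change (DIO + DHA minus DIO) of every tested gene in 8 lists, with orange for genes called higher, blue for genes called lower, grey for genes not called and a black bar for the list's median. Members lie from -0.35 to 0.85, no regulator of p53, other inhibitor or G1 gene is coloured, and 7 secretory genes lie to the left in blue; the point at the right edge is Igfbp6, whose fitted value depends on the prior count because DIO had 0 counts.

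Genes of other cell types and of the clock differed between the same libraries, and their part in the values above was not tested. Hepatocyte genes were present throughout, with the 12 listed summing to 90736 to 97030 CPM in DIO and 91519 to 105050 CPM in DIO + DHA. Single genes moved within that sum, as 2 of the 12 were called higher and 4 lower (50%, beside 15.2% of all genes). Of the 16 macrophage and Kupffer cell markers, 13 were called lower and 1 higher, and their sum was 1049 to 1135 CPM in DIO and 590 to 624 CPM in DIO + DHA. Of 12 T and NK cell markers, 9 were tested and 6 were lower, with sums of 43.0 to 54.4 and 16.6 to 21.8 CPM. Endothelial markers had 3 of 10 lower (sums of 235 to 266 and 178 to 207 CPM). Among 10 stellate cell markers, 2 were lower and 1 higher (433 to 459 and 405 to 426 CPM). That higher gene was Des, at 1.52 ± 0.566 and 16.9 ± 5.09 CPM, and the muscle markers given below rose as well. B and plasma cell markers had 1 of 4 tested lower (273 to 310 and 228 to 263 CPM). Cholangiocyte markers had 1 of 5 tested higher (57.2 to 63.4 and 56.8 to 69.4 CPM).

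Genes of 2 tissues other than liver were higher in the DIO + DHA libraries. All 16 skeletal muscle markers were called higher, and their sum was 41.4 to 47.0 CPM in DIO and 1407 to 1516 CPM in DIO + DHA, a coefficient of variation of 2.85% over those 5 libraries. The 10 stratified epithelium markers summed to 0 to 1.08 CPM in DIO and 51.2 to 54.9 CPM in DIO + DHA, and 8 of them had 0 counts in DIO. Muscle and epithelium also express Cdkn1a and Ccnd1, and these libraries give no separate values for them. With the muscle and epithelium genes left out of the scaling, the same 3 of the 10 genes were called. That step changes the scaling alone and cannot remove counts of the 10 genes that came from those tissues.

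Of 18 clock genes, 16 were tested, 10 were lower and 1 was higher (68.8% called, beside 15.2% of all genes). Their sums were 364 to 385 CPM in DIO and 252 to 262 CPM in DIO + DHA, with no overlap between the groups. Tef was the most abundant (86.8 ± 5.61 and 54.4 ± 3.89 CPM). Of 13 immediate early genes, 10 were tested, 3 were higher and 2 lower (50% called), and their sums overlapped (213 to 222 and 199 to 224 CPM). Jund, an AP-1 factor gene and the most abundant of them, was at 59.2 ± 4.64 and 50.9 ± 10.5 CPM (adjusted p = 0.329, edgeR). The time of death was not given by mouse, so clock phase and diet cannot be told apart. Over the 11 sums of marker, clock and immediate early genes, 8 gave an exact two-sided permutation p of 0.0179 (adjusted 0.0246). That is the smallest that the 56 ways to assign 3 and 5 libraries allow. By the same permutation test, hepatocyte, cholangiocyte and immediate early genes gave 0.321, 0.571 and 0.732. The lists were chosen with earlier results of these data known, so these p-values are a description.

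**Figure D5:**
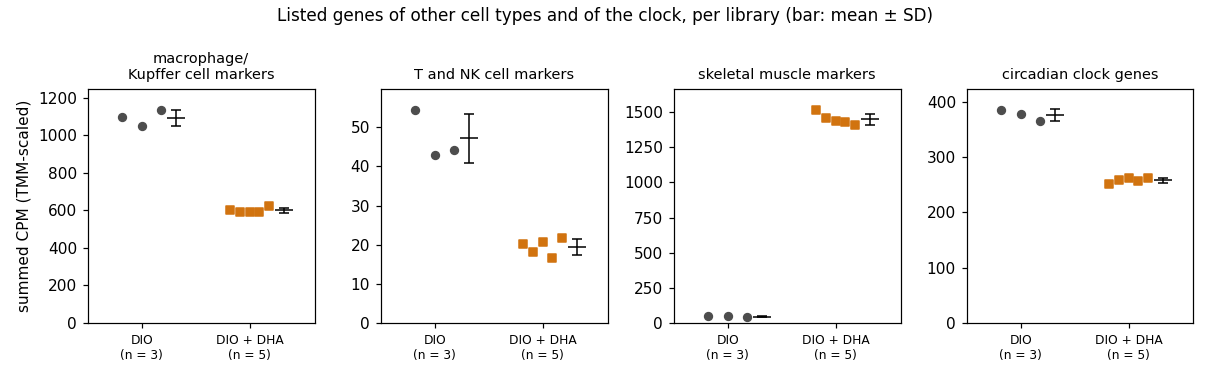
Summed CPM of the listed macrophage and Kupffer cell, T and NK cell, skeletal muscle and circadian clock genes in each library, with circles for DIO (n = 3), squares for DIO + DHA (n = 5) and bars for the mean ± SD. The muscle sum is 41.4 to 47.0 CPM in DIO and 1407 to 1516 CPM in DIO + DHA, and the other 3 sums are lower in every DIO + DHA library than in any DIO library.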

How the data were processed

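Liver RNA of 8 mice was compared, with groups and replicate numbers from the labels. The authors made 3′-enriched cDNA by an adapted SCRB-seq protocol with molecular identifiers, prepared libraries with Nextera XT, trimmed the reads, aligned them with STAR 2.7.9a to GRCm39 and ran featureCounts 1.6.0 over the exons of release 33 of the GENCODE mouse annotation. They deposited raw counts for each gene, with no normalization. The sources do not say if identifiers were collapsed. The floors and the exact counting interval therefore cover counting error alone. The intervals of fold changes came from the edgeR test and also include the estimated spread between libraries.

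The tables were joined by gene identifier, and names came from GENCODE mouse release 39 (56323 of 56884 identifiers). As in the study, genes with fewer than 5 counts in over 50% of libraries, in both groups, were dropped. Counts were tested with edgeR 4.0.16 (TMM, robust quasi-likelihood F test) in R 4.3.3, after a trial on simulated data. Standard errors came from the F statistic, and B from limma 3.58.1. Promoter sequence came from GRCm39.

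The 10 genes, the gene lists and the tests were chosen with earlier results of these data known. Outside the 10, the text names genes called in a pathway list (all where at most 6 were called, otherwise the 3 higher and 3 lower with the smallest p), the most abundant of each list, and 9 genes of similar pattern. Beyond that rule, Cdkn1b, Ccnd2, Ccnd3, Cdk4, Mki67, Glb1, Trp53, Mdm4, Il6, Areg, Des, Acta1 and Myh1 were named after their values were seen. Marker lists are otherwise given by sums and calls, and of the clock and immediate early lists only the most abundant gene is named. Alternatives covered scaling, DESeq2 1.42.0, limma-voom, filters, the replicate block and leaving out each library.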

Additional observations from a re-analysis of the deposited data

Results flagged for a closer look

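In each group of 5 libraries, the distance of the highest or lowest value from its neighbour was set against the whole range for each of the 10 genes. One was far from the rest. Cdkn2a was at 0.4358 CPM in DIO + DHA replicate 6, from 2 counts, and at 0 in the other 4 libraries of that group. Of 10 such groups, 1 stood out, and it rests on those 2 counts.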

How the results depend on the processing

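Cdkn1a and Ccnd1 were called under all 19 alternatives, with log2 fold changes of 0.83 to 0.90 and 0.693 to 0.801. Trp53inp1 was called under 17, with 0.436 and no call at limma-voom B above 0, and 0.372 to 0.578 when each library was left out. Mdm2, Ccng1, Cdkn2c, Gadd45a and Gadd45g were never called. With each library left out, Cdkn2c ranged from -0.42 to 0.0275 and turned positive (0.0275) without DIO replicate 5. The same ranges were -0.281 to -0.0883 for Mdm2, 0.0196 to 0.149 for Ccng1, -0.53 to -0.242 for Gadd45a and -0.249 to -0.0815 for Gadd45g. Leaving out 1 library gave log2 differences of 0.922 to 1.11 for Cdkn1a to Mdm2 and 0.653 to 0.811 for Cdkn1a to Ccng1, an alternative added after the data were seen. The cause was not tested.

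Over all genes, 1883 were called, against 859 at B above 0 and 1317 by the DESeq2 Wald test, of which 601 were lower. The split of 979 higher and 904 lower became 901 and 962 with library size alone, and 665 and 751 with at least 10 counts required in every library. With the replicate number as a block, 1539 genes and the same number of the 10 genes (3) were called, and Ccng1 became -0.0266 (adjusted p = 0.962, edgeR). Deviations of same-numbered libraries correlated at -0.0262, -0.0726 and -0.0538 over 4182 genes. With so little spread beyond counting error, these values cannot show whether the numbers pair the mice. With no filter, Cdkn2a and Cdkn2b were not called (adjusted p = 0.511 and 0.824, edgeR). Depth limits what can be said of these 2 genes.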
